A study of Mus musculus with 3 samples.

Results

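HA-NUR77 peaks were examined around 6 mouse genes of glycolysis and of its regulator HIF-1 alpha, namely Slc2a1, Hk2, Pfkfb3, Pkm2, Ldha and Hif1a. A peak was taken as a member if its centre lay in a fixed window around one of these genes, whatever its score. The windows, in build mm9, were chromosome 4 from 118.72 to 118.88 Mb for Slc2a1, chromosome 6 from 82.6 to 82.8 Mb for Hk2 and chromosome 2 from 11.32 to 11.55 Mb for Pfkfb3. Those of the other genes were chromosome 9 from 59.44 to 59.59 Mb for Pkm2, chromosome 7 from 54.04 to 54.17 Mb for Ldha and chromosome 12 from 74.94 to 75.12 Mb for Hif1a. They held 68 of the 52946 peaks of the series, which formed 50 of its 38463 merged regions.

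The series has 1 group of 3 samples and no second group. RAW264.7, an established mouse macrophage line, carried the doxycycline-inducible construct pINDUCER20b-HA-NUR77, so the precipitated protein was overexpressed and tagged. All 3 replicates received 1 µg/mL doxycycline for 18 hours, begun 24 hours after seeding. Chromatin of 6 dishes per replicate, fixed with the crosslinkers DSG (2 mM) and formaldehyde (1%), was pulled down through the HA tag. The labels do not say whether the replicates were grown on separate days. The lists of replicates 1, 2 and 3 held 6777, 37307 and 8862 peaks. They give no read counts, so depth is unknown, and a missing peak does not show a site to be unbound.

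NUR77 is the product of Nr4a1, an orphan nuclear receptor that macrophages make quickly when they are activated. It can bind DNA as a monomer at the site AAAGGTCA, called NBRE. Glycolysis turns glucose into pyruvate, and activated macrophages use it heavily. HIF-1 alpha, the oxygen-regulated subunit of the transcription factor HIF-1, drives many glycolytic genes through hypoxia response elements. The form of their core searched here was ACGTG, and other forms were not searched. The title of the series names NUR77 and mitochondrial metabolism in the inflammatory response. The genes that name the windows, apart from the regulator Hif1a, belong to the cytosolic side of glucose metabolism.

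The promoters of the 6 genes were searched for these sites in reference sequence, since sequence under the peaks needs an mm9 genome, which was not used here. RefSeq promoters of build GRCm38.p6 span 250 bases before to 50 bases after each start site. All 6 genes matched the table, with 9 promoters between them (Pkm2 under its symbol Pkm). Both strands were searched, and matches to ACGTG can overlap in the palindrome CACGTG. No conversion between GRCm38 and mm9 was made, so whether a peak overlaps any of these promoters was not tested. The upstream ACGTG match nearest to a start site of each gene is shown with its surroundings, to let the 6 genes be compared. Capitals mark ACGTG or, on the other strand, CACGT.
Slc2a1, chr4:119108691-119108731, plus strand: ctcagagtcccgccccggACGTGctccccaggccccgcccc
Hk2, chr6:82774484-82774524, minus strand: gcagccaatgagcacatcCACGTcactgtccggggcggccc
Pfkfb3, chr2:11502120-11502160, minus strand: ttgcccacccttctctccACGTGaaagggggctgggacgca
Pkm, chr9:59657134-59657174, plus strand: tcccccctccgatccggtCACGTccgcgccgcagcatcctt
Ldha, chr7:46845752-46845792, plus strand: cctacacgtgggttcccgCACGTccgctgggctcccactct
Hif1a, chr12:73907779-73907819, plus strand: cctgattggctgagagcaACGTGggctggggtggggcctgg

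ACGTG was present in at least 1 promoter of all 6 genes and in 7 of their 9 promoters, against 19.6% of the 32851 promoters of the table. By gene, the share in the table was 21.8%. The comparison was not matched for base composition or for the number of promoters per gene. The matches shown begin 36 bases upstream of the start site in Slc2a1, 52 in Hk2 and in Pfkfb3, 75 in Pkm, 34 in Ldha and 70 in Hif1a. The promoter of Ldha held 5 matches and that of Hif1a held 3, counting both strands of the palindrome. The full NBRE, AAAGGTCA, was in none of the 9 promoters, against 1.51% of all promoters. The shorter AGGTCA, which lies within the NBRE and is the core that many nuclear receptors recognise, was in 2 of the 9 promoters, those of Pkm and Hif1a, against 16.3% of all promoters. These are shown with AGGTCA or its reverse complement in capitals, because they are the exact matches to this core among the 9 promoters.
Pkm, chr9:59657067-59657108, plus strand: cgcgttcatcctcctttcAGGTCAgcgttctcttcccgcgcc
Hif1a, chr12:73907752-73907793, plus strand: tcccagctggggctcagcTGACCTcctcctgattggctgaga

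The same search was made over other genes of the pathway, as far as the table holds them. ACGTG was in a promoter of 8 of 17 further glycolytic enzymes, 3 of 7 genes for phosphofructokinase regulators and pyruvate dehydrogenase kinases, 3 of 6 HIF pathway genes and 2 of 3 transporters of glucose and lactate, against 21.8% of all genes. AGGTCA was in a promoter of 7 of the 17 enzymes, 1 of the 7 regulators and kinases, 1 of the 6 HIF pathway genes and 0 of the 3 transporters, against 18.1% of all genes. AAAGGTCA was in a promoter of 1 of the 17 enzymes and 1 of the 7 regulators and kinases, and in none of the HIF pathway genes or transporters, against 1.70% of all genes. The matches describe sequence and carry no information on binding.

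Peaks were denser in the 6 windows than in the rest of the genome, in each replicate. Replicate 1 had 8.57 peaks per Mb in the windows, against 2.55 in the rest. Replicate 2 had 45.7 peaks per Mb in the windows, against 14.0 in the rest. Replicate 3 had 10.5 peaks per Mb in the windows, against 3.33 in the rest. The ratio of windows to rest was 3.36, 3.26 and 3.14, a mean of 3.25 ± 0.11 (SD, n = 3), above 1 in 3 of 3 replicates. An exact two-sided sign-flip permutation test of the log2 ratio gave p = 0.25, the smallest p that 3 replicates allow. The lists differ several-fold in length, and the relative density of the windows differed little between them. The ratios rest on 9, 48 and 11 peaks, and the SD between replicates does not cover the counting error of such numbers. The lists also share sites. In the windows 8 of 9 peaks of replicate 1 and 10 of 11 of replicate 3 overlapped a replicate 2 peak. The closeness of the ratios is therefore no measure of their precision.

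The windows were placed on genes, while the rest of the genome includes stretches without genes, and the part of gene density in this ratio was not tested. Other genes lie beside the members, in the gene order of GRCm38. Ldha stands between Gtf2h1 and Ldhc, Pkm between Parp6 and Gramd2, and Hif1a between Prkch and Snapc1. Slc2a1 stands between Lao1 and Zfp691, Hk2 between Pole4 and Sema4f, and Pfkfb3 between Prkcq and Rbm17. A peak in a window is therefore not assigned to the gene that names it.

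Of the windows, that of Hif1a was the densest, with a ratio to the rest of the genome of 6.54, 4.35 and 6.66 in replicates 1, 2 and 3, a mean of 5.85 ± 1.30 (SD, n = 3). Next came Ldha with 3.64 ± 0.854, Pkm2 with 3.36 ± 1.67 and Slc2a1 with 3.15 ± 1.57. Hk2 had 2.07 ± 1.79 and Pfkfb3 2.04 ± 0.941. In each replicate the ratio was highest for Hif1a, which held 3, 11 and 4 peaks. In replicate 1 the windows of Slc2a1 and Pkm2 held 2 peaks each, and in replicate 3 those of Hk2 and Ldha held 2 each. The lead in these replicates thus rests on few peaks. Among the other 5 windows neighbours in this order differed by less than 1 SD between replicates, so their order is not resolved. Replicate 1 had no peak in the Hk2 window, and every other window was above 1 in 3 of 3 replicates. In replicates 1 and 3 a single peak is enough for this. Even in the widest window, that of Pfkfb3, 1 peak gave ratios of 1.71 and 1.30. For these replicates a ratio above 1 therefore says only that the window held a peak.

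**Figure D1:**
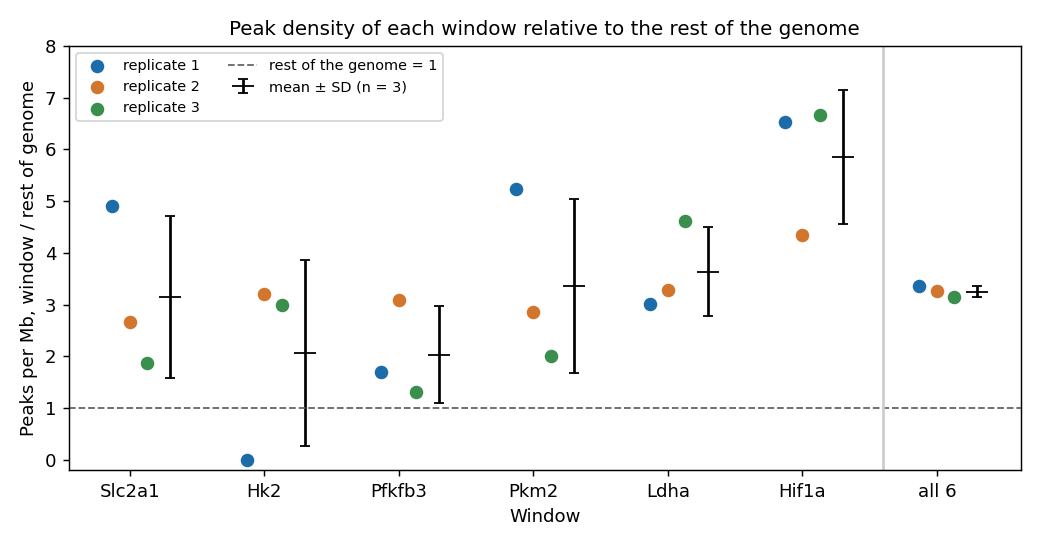
Peaks per Mb in each window divided by peaks per Mb in the rest of the genome (y axis) for each of the 6 windows and all 6 together, by replicate, with the mean and SD of 3 replicates in black. All 6 windows together lie between 3.14 and 3.36, while single windows spread from 0 (Hk2, replicate 1) to 6.66 (Hif1a, replicate 3).

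Merged across replicates, where peaks overlapped by at least 1 bp, the 50 regions held 12 found in 2 or more replicates and 6 found in all 3. The 12 are 24.0% of the regions (95% Wilson interval 14.3 to 37.4), against 25.4% over all merged regions of the genome. The 6 are 12.0% (5.62 to 23.8), against 12.3%. Replicate 2 alone accounted for 36 regions, or 72.0%, and for 72.1% in the rest of the genome. The windows thus held more regions per Mb, but a region in them was shared between replicates about as often as elsewhere. The authors' deposited table of intervals covered by at least 2 replicates held 24 intervals in the windows, which join into 12 regions. All 12 regions from the lists overlapped them. The table covers the same replicates, so this checks positions and is not independent support.

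Each of the 6 windows held at least 1 region of 2 or more replicates. With the genome divided into tiles as wide as each window, the share of tiles with at least 1 such region was 27.9% at the width of Slc2a1, 31.9% at that of Hk2 and 34.2% at that of Pfkfb3. It was 27% at the width of Pkm2, 24.6% at that of Ldha and 30.1% at that of Hif1a. Regions of all 3 replicates were found in every window except that of Hk2. The share of tiles with such a region was 18.1%, 23.4%, 17.3%, 15.4% and 19.8% at the widths of Slc2a1, Pfkfb3, Pkm2, Ldha and Hif1a, and 21.4% at that of Hk2. The tiles cover the whole genome and were not matched for gene content.

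The windows were also set against tiles with at least as many such regions. The 3 regions of the Hif1a window were reached by 8.81% of tiles of its width. The 2 regions of Ldha were reached by 11.6%, those of Pkm2 by 13.4%, those of Slc2a1 by 14.3% and those of Hk2 by 17.5%. The single region of Pfkfb3 was reached by 34.2%, and the fullest tile of any of these widths held 17. Counts like those of the windows were thus found in many tiles, least often for Hif1a.

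**Figure D2:**
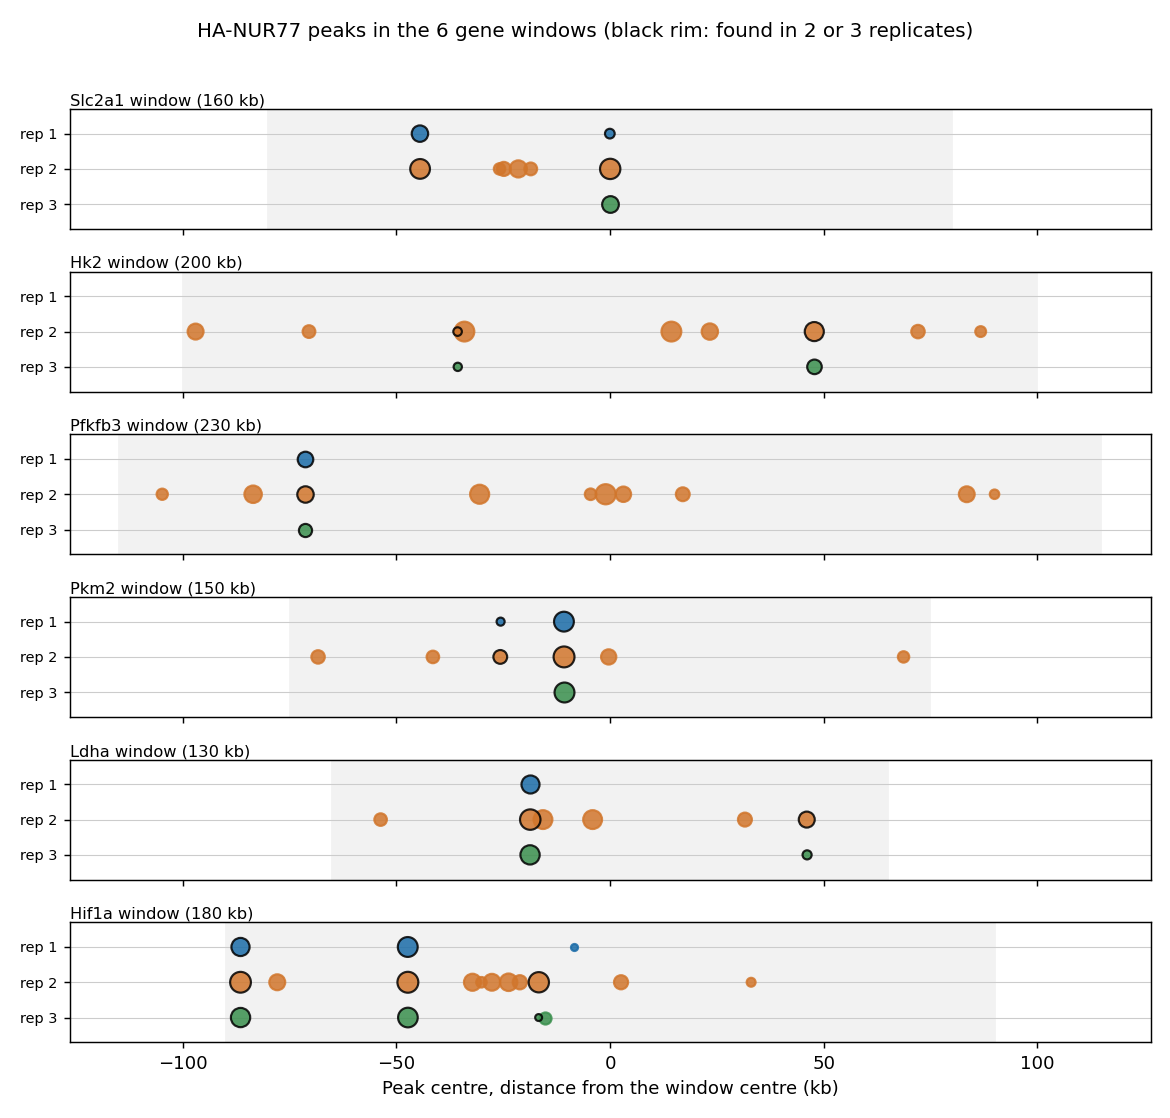
Position of each peak centre relative to the centre of its window (x axis, kb) in the 3 replicates (rows of each panel), for the 6 windows (grey span). Point size follows the percentile of the peak's score in its own list, and a black rim marks peaks of the 12 regions found in 2 or 3 replicates, of which the Hif1a window holds 3 and the Pfkfb3 window 1.

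The windows are next taken in the order of the pathway, from glucose entry to lactate and then HIF-1 alpha. Regions are numbered from left to right within a window. Each score is the authors' own value for that peak, of unstated scale, and is compared only within a list. The percentile is the share of peaks of the same list that scored lower, with ties at their middle rank.

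Slc2a1 encodes GLUT1, the transporter that carries glucose into most cells. Its window held 2, 6 and 1 peaks in replicates 1, 2 and 3. Region 6, at 118799776 to 118800275, was found in all 3 replicates, with scores of 26.9, 398 and 60.3 and percentiles of 13.6, 91.9 and 59.0. The same site was thus near the top of the replicate 2 list and near the bottom of the replicate 1 list. Region 1, at 118755176 to 118755875, had a score of 50.3 in replicate 1 and 273 in replicate 2, at percentiles of 56.8 and 86.1. Between them lay 4 peaks of replicate 2 alone within 7.60 kb, with scores of 40.3 to 111. The best scored of these was region 4, at 118778426 to 118778625.

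Hk2 encodes hexokinase 2, which traps glucose in the cell by phosphorylating it. Its window held 9 peaks in replicate 2, 2 in replicate 3 and none in replicate 1. Region 7, at 82747476 to 82748125, scored 199 in replicate 2 and 44.2 in replicate 3, at percentiles of 79.7 and 42.7. Region 3, at 82664176 to 82664445, scored 28.2 in replicate 2 and 25.1 in replicate 3, at percentiles of 8.49 and 7.35, so it was weak in both lists. The better scored peaks of this window were in replicate 2 alone. Region 5, at 82714026 to 82714675, scored 292 and region 4, at 82665576 to 82666225, scored 287, both within the highest-scored 20% of the replicate 2 list.

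Pfkfb3 encodes the enzyme that makes a strong activator of phosphofructokinase and so stimulates glycolysis. Its window, the widest, held 10 peaks in replicate 2 and 1 in each of the others. Region 3, at 11363367 to 11363966, was the sole region shared between replicates and was found in all 3, with scores of 44.7, 93.6 and 37.6. Its percentiles were 50.0, 56.8 and 33.0, near the middle of each list. A higher score was given to region 6, at 11433617 to 11434316, in replicate 2 alone, with 356 at percentile 90.4. It was one of 3 peaks of that replicate within 8.15 kb, of which none was found in another replicate.

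Pkm2 is the isoform of muscle pyruvate kinase that proliferating and activated cells use for the last step of glycolysis, and its gene is Pkm. The window held 2, 6 and 1 peaks in the 3 replicates. Region 4, at 59503897 to 59504546, was found in all 3 replicates with scores of 108, 819 and 139. At percentiles of 87.1, 97.7 and 87.8, it was among the best scored of each list, at ranks 875, 859 and 1079. Region 3, at 59489097 to 59489499, lay 14.9 kb from it and was much weaker, with 24.6 in replicate 1 and 56.6 in replicate 2. Region 5, at 59514447 to 59514896, was the best scored of the regions found in 1 replicate alone, with 72.9 in replicate 2.

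Ldha encodes lactate dehydrogenase A, which turns pyruvate into lactate. Its window, the narrowest, held 1, 6 and 2 peaks in the 3 replicates. Region 2, at 54085962 to 54086661, was found in all 3 replicates with scores of 65.8, 447 and 109, at percentiles of 70.4, 93.2 and 81.8. It lay in the upper part of each list. Region 6, at 54150762 to 54151311, scored 84.6 in replicate 2 and 26.6 in replicate 3. Region 4, at 54100712 to 54101111, was the best scored of the regions found in 1 replicate alone, with 184 in replicate 2.

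Hif1a encodes HIF-1 alpha. Its window held 3, 11 and 4 peaks in the 3 replicates, the most of any window in each replicate. Region 3, at 74982367 to 74982966, scored 109, 829 and 123, at percentiles of 87.4, 97.8 and 85.3. Region 1, at 74943167 to 74943816, scored 67.5, 663 and 108, at percentiles of 71.5, 96.5 and 81.7. Both were found in all 3 replicates and ranked high in each list, which made this the sole window with 2 such regions. Region 1 lay 3.49 kb inside the left border of the window, so it belongs to the window by a small margin.

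Region 9 of Hif1a, at 75013017 to 75013616, differed between lists, with a score of 392 at percentile 91.6 in replicate 2 and 23.0 at percentile 2.13 in replicate 3. It stood at the end of a run of 6 peaks of replicate 2 within 16.1 kb, from 74997517 to 75013616. The other 5 peaks of the run were found in replicate 2 alone. The best scored of them was region 7, at 75005967 to 75006516, with 122. Regions 10 and 11 were the sole regions outside replicate 2 in all 6 windows. Region 10 was found in replicate 3 alone, with a score of 33.8, and region 11 in replicate 1 alone, with 23.4.

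**Figure D3:**
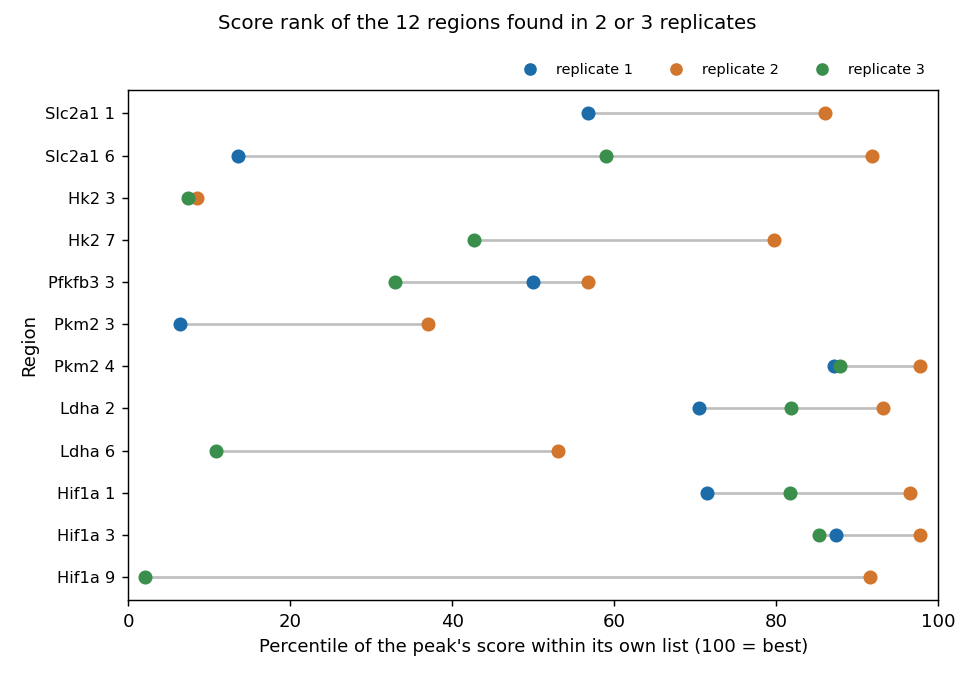
Percentile of the peak's score within its own list (x axis, 100 is best) for the 12 regions found in 2 or 3 replicates (rows), with a point per replicate. Pkm2 region 4, Ldha region 2 and Hif1a regions 1 and 3 are at or above 70.4 in all 3 replicates, while Hif1a region 9 spans 2.13 to 91.6.

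In all 12 shared regions the percentile was higher in replicate 2 than in the other replicates. A percentile depends on the length of its list, and the replicate 2 list is the longest. Whether list length accounts for the higher percentiles was not tested. Centres of the peaks of 1 region lay 11 to 84 bp apart, with a median of 45.5 bp. Only overlapping peaks were merged into a region, which by itself limits this distance. Neighbouring shared regions of a window lay 14.9 to 83.5 kb apart, with a median of 41.8 kb over 6 pairs, against a median of 54.0 kb between all neighbouring regions of 2 or more replicates. Confining pairs to windows shortens these distances by itself.

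As a set, the scores in the windows were close to those of the whole lists. The median percentile of the 9, 48 and 11 peaks of replicates 1, 2 and 3 was 56.8, 52.4 and 42.7, a mean of 50.6 ± 7.22 (SD, n = 3). The peaks of the rest of the genome had medians of 50.0 in each replicate. In the best scored 10% of a list lay 7 of the 48 replicate 2 peaks, or 14.6% (95% Wilson interval 7.25 to 27.2), against 10% of the whole list. Of the replicate 1 peaks 0 of 9 lay there and of the replicate 3 peaks 0 of 11. With 3 peaks as the upper limit for a count of 0, this allows shares of up to 33.3% in replicate 1 and 27.3% in replicate 3. The median peak width in the windows was 350, 500 and 300 bp in replicates 1, 2 and 3, against 350, 500 and 350 bp in the rest.

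The sharing of the peaks was also close to that of the lists. Of the 9 peaks of replicate 1, 8 overlapped a peak of another replicate (88.9%, Wilson interval 56.5 to 98.0), against 94.3% of the whole list. Of the 48 peaks of replicate 2, 12 did (25.0%, 14.9 to 38.8), against 25.7%. Of the 11 peaks of replicate 3, 10 did (90.9%, 62.3 to 98.4), against 93.2%. None of these shares differed from the list beyond its interval, which covers counting error only.

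Within replicate 2, the share found in another replicate was greatest in the highest-scored band, in the windows and in the rest of the genome. In the highest-scored 20% of the list it was 7 of 10 peaks in the windows, or 70.0%, against 73.8% in the rest. In the next 20% it was 1 of 9 (11.1%), against 32.6%. In the middle 20% it was 2 of 9 (22.2%), against 13.4%. In the lower bands it was 1 of 15 (6.67%) and 1 of 5 (20.0%), against 5.95% and 2.80%. The 3 peaks of the highest band without a counterpart were Hk2 regions 4 and 5 and Pfkfb3 region 6, and such peaks made up 26.2% of that band in the rest of the genome.

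**Figure D4:**
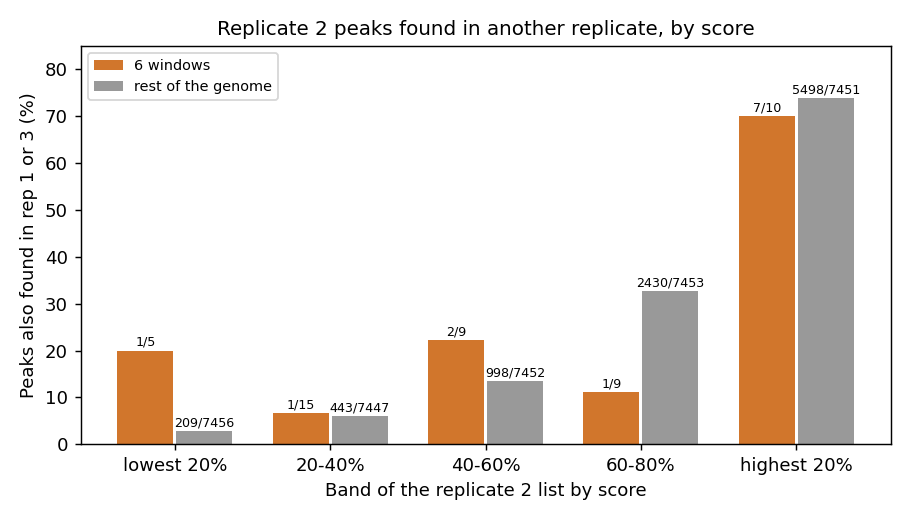
Share of replicate 2 peaks that overlap a peak of replicate 1 or 3 (y axis, percent) by bands of 20% of the replicate 2 list from lowest to highest score (x axis), in the 6 windows (orange) and the rest of the genome (grey), with the counts above the bars. In the highest band the share is 70.0% in the windows and 73.8% in the rest.

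The share of replicate 2 peaks with a close neighbour was similar in the windows and over the whole list. Of the 48 peaks, 17 had another replicate 2 peak within 5 kb between centres (35.4%, Wilson interval 23.4 to 49.6), against 34.9% of the whole list. The median distance to the nearest one was 9.73 kb in the windows and 8 kb in the rest. The distance of 5 kb was chosen after the runs at Slc2a1, Pfkfb3 and Hif1a had been seen. Peak numbers in the names skipped 3, 15 and 3 values between the first and last peak of a window in replicates 1, 2 and 3, so the lists do not hold every peak that was numbered there.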

How the data were processed

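ChIP-seq peaks of 3 HA-NUR77 replicates were analysed as the authors deposited them, a list per replicate with start, end and a score for each peak. The build is mm9, per the submitters' processing notes. Peak names have the form that MACS gives. The sources used here give no aligner, caller version or threshold. The scale of the deposited score is not stated, so it was used only for ranks within a list. The authors' deposited table of intervals covered by 2 or more replicates served as a check of positions. Its replicate names matched the lists for 17 of the 24 intervals in the windows as written and for 24 with the names of replicates 2 and 3 exchanged, so its names were not used.

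The 6 windows and the gene lists were chosen with earlier results of these data known. Named are the 6 genes, every region of 2 or more replicates, and the best-scored region of 1 replicate in each window. Hk2 region 4, Hif1a regions 10 and 11 and the runs of replicate 2 peaks were named after their values were seen. Overlap of at least 1 bp defined sharing. Chromosome lengths came from GenomeInfoDb 1.38.1. Shares carry 95% Wilson intervals, or an upper limit of 3 counts where the count was 0, and an exact sign-flip permutation test was run over replicates. Alternatives were windows widened by 50 kb or narrowed to their middle part, the higher-scored 50% of each list, 6777 best-scored peaks from each, other overlap rules (50% of both peaks, or centres within 100 bp), the autosomes as the comparison, shifted tiles and leaving out each replicate. Planted peaks of equal width, with a fixed shift between lists, were recovered at 100% in simulated data. This checked the counting steps only, since the deposited peaks vary in width and offset. The work used Python 3.11.15 with scipy 1.17.1, pandas 2.3.3, numpy 2.4.6 and, for plots, matplotlib 3.10.9. Promoter sequences are from RefSeq (GRCm38.p6).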

Additional observations from a re-analysis of the deposited data

How the results depend on the processing

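The density of the windows stayed above that of the rest of the genome under all 9 alternatives, with a ratio of 2.61 with windows widened by 50 kb to 3.93 in the middle 50% of each window, and 3.20 to 3.31 with each replicate left out. Its exact permutation p stayed at 0.25, or 0.5 with 2 replicates, the smallest these numbers of replicates allow. The number of regions in 2 or more replicates was 12, and became 7 in the middle 50% of each window. It was 6 with the higher-scored 50% of each list and 7 with an equal number of best-scored peaks. These alternatives use less of the genome or shorter lists, which by itself lowers such a count or leaves it the same. The number was 9 with overlap of 50% of both peaks, 12 with centres within 100 bp and 15 with widened windows. It was 6 to 10 with each replicate left out, lowest without replicate 2. The mean of the median percentiles, 50.6, was 38.1 in the middle 50% of each window, and the median distance between regions was 64.7 kb with widened windows. For both the cause was not tested. AAAGGTCA matched promoters of 0 of the 6 genes, and of 2 (Pkm and Ldha) with 1 mismatch allowed, against 26.3% of all genes of the table. No paired analysis was possible because the series holds a single group. Regions just beyond the borders lay 9.68 and 13.7 kb outside the Hk2 window and 16.6 kb outside that of Slc2a1. Small counts, unknown depth and the absence of a control sample limit all of these values.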
